A study of Mus musculus with 15 samples.

Results

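Prostaglandins and leukotrienes are lipid mediators made from arachidonic acid, and 10 genes of this pathway, of the 19456 genes in the deposited count table, were followed across blood monocytes and small intestinal macrophages. The 10 symbols were taken as a list and matched to the Ensembl identifiers of the table, and all 10 were found and passed the filter on low counts. They were the cyclooxygenases Ptgs1 and Ptgs2, the terminal synthases Ptges and Hpgds, the PGE2 receptors Ptger2, Ptger3, and Ptger4, the 5-lipoxygenase Alox5 with its partner Alox5ap, and the leukotriene C4 synthase Ltc4s.

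Cyclooxygenases convert arachidonic acid to PGH2, which terminal synthases turn into PGE2, PGD2, thromboxane, or prostacyclin. 5-Lipoxygenase, helped by its activating protein at the nuclear membrane, instead makes LTA4, from which LTB4 or the cysteinyl leukotrienes are formed. In the gut these mediators are known for their actions on blood flow, epithelial repair, smooth muscle, and leukocyte recruitment, and macrophages are among the cells that make and sense them.

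The study asked how small intestinal macrophages that differ in surface Tim-4 and CD4 compare with one another and with Ly6Chi blood monocytes. All libraries came from wild-type adult male C57BL/6 mice. Ly6Chi monocytes from peripheral blood gave 3 libraries. Macrophages with neither marker (Tim-4-CD4-, called double-negative here) gave 4. Those with CD4 alone (Tim-4-CD4+, single-positive) gave 4, and those with both (Tim-4+CD4+, double-positive) gave 4. The paper describes 4 independent sorts for the macrophages and 3 for the monocytes. Whether the 3 subsets of a sort came from the same mice is not stated. Each library was a pool of 3 mice, except monocyte replicate 2, a pool of 4. The macrophages were released from lamina propria and muscularis with liberase at 37°C, and gates on Siglec F, TCRβ, B220, Ly6G, and Ly6C were used to leave out other cells, whereas blood was not digested with enzymes. Tissue of origin and way of isolation therefore cannot be told apart in any comparison with monocytes.

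The library totals ran from 39388763 to 151510641 counts on genes. Levels are given as CPM, the count of a gene relative to the TMM-scaled size of its library, and differences as log2 fold changes with their SE from 1 edgeR quasi-likelihood fit over the 15 libraries, with Benjamini-Hochberg adjusted p-values over 15802 genes. Double-positive replicate 1 stood apart from its group for several members, and double-negative replicate 3 had the highest levels of some dendritic cell and epithelial genes, with Itgae at 24.7 CPM and Epcam at 10.8 CPM. Macrophage identity genes were present in all 12 macrophage libraries, with Adgre1 between 873 and 1235 CPM and Mertk between 98.8 and 216 CPM. A lower RNA level in a sorted pool can come from fewer cells of a type or from less RNA per cell, and these cannot be told apart.

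**Figure D1:**
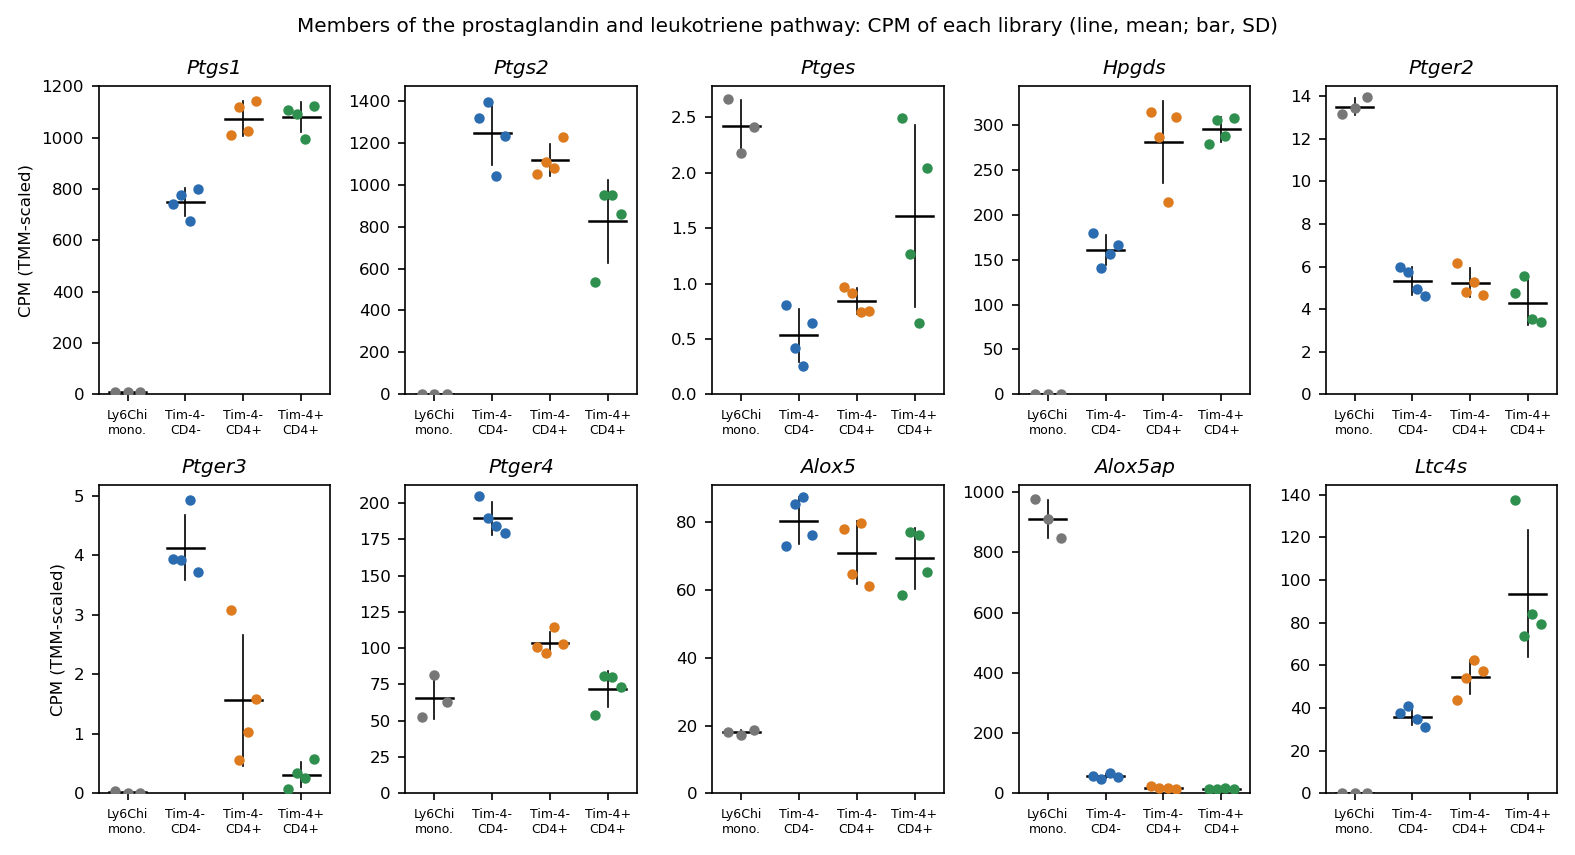
CPM of each of the 10 members in every library, with 1 point per library, the mean as a line, and the SD as a bar, on a linear axis for each gene. Ptgs1, Ptgs2, Hpgds, and Ltc4s sit near 0 in monocytes and high in every macrophage library, whereas Alox5ap runs from 848 to 976 CPM in monocytes and from 13.7 to 66.8 CPM in macrophages.

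The sequences around the start sites of Ptgs1, Hpgds, and Ptgs2 are shown first. Ptgs1 and Hpgds both rose from double-negative macrophages to each CD4+ subset, and Ptgs2 and Hpgds had the largest fitted rises over blood among the members. RefSeq gave a promoter window in GRCm38.p6, from 250 bases before to 50 after the start, for 9 members, and Alox5ap had no entry in that table. Capitals mark matches, on either strand, to a PU.1-type motif (GAGGAAGT) in Ptgs1 and Hpgds, and to a C/EBP-type motif (TTGCGCAA) and a cAMP response element core (TACGTCA) that shares 2 bases with an E-box (CACGTG) in Ptgs2. Windows are written 5′ to 3′ on the strand of the gene.
Ptgs1, chr2:36230176-36230475, plus strand: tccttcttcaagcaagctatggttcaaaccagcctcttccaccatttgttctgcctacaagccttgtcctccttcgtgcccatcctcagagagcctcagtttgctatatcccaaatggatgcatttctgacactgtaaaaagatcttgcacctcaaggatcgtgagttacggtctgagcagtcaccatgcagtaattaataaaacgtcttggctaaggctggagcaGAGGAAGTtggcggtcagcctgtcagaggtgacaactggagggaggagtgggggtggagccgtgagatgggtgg
Hpgds, chr6:65144681-65144980, minus strand: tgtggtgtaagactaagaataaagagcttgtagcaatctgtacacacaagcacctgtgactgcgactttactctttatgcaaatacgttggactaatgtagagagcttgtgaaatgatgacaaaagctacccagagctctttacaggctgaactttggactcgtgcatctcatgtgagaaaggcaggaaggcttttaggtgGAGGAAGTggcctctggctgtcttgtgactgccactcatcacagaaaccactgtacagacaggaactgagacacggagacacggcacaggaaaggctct
Ptgs2, chr1:150099781-150100080, plus strand: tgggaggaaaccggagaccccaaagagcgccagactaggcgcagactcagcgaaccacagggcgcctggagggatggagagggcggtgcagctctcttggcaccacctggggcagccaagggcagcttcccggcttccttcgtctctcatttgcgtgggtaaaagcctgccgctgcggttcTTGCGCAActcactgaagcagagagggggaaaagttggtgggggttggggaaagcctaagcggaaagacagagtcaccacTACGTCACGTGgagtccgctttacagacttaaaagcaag

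The PU.1-type motif began 24 bases before the start site in Ptgs1 and 49 before it in Hpgds, and 2 of the 9 members held it, compared with 3.20% of 32851 promoters of the same length. The C/EBP-type motif was in 1 of the 9 members, Ptgs2, and in 0.183% of all promoters. CACGTG was in 7.15% of all promoters and TACGTCA in 1.27%, and of the members only Ptgs2 held either in its window. An AP-1-type motif (TGANTCA), in 7.81% of all promoters, had no match in the 9 windows. A GC box (GGGCGG) was in 5 of the 9 windows and 35.7% of all promoters, and a TATA box (TATAAA) in 0 of 9 and 13.6%. The motifs were chosen after the members' windows had been looked at, and the matches are letters in a window that were not tested for binding.

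Ptgs1 and Ptgs2, the constitutive and the inducible cyclooxygenase, were scarce in blood monocytes and abundant in all macrophage subsets. Ptgs1 (ENSMUSG00000047250.13, chr2:36230426-36252272, plus strand, in GRCm38 with GENCODE M21, as for all positions given here) had 9.63, 8.07, and 8.96 CPM in the monocyte libraries. Its CPM was 742, 777, 674, and 802 in double-negative macrophages, 1009, 1121, 1025, and 1145 in single-positive macrophages, and 1108, 1093, 993, and 1125 in double-positive macrophages. Every macrophage library lay above every monocyte library, and both CD4+ subsets lay above double-negative macrophages with no overlap. The rise over monocytes was 84.2-fold in double-negative, 121-fold in single-positive, and 121-fold in double-positive macrophages, with adjusted p = 3.2e-16 or lower (edgeR). Between subsets, Ptgs1 was higher in single-positive than in double-negative macrophages by a log2 fold change of 0.52 ± 0.08 (edgeR, adjusted p = 0.000615). It was higher in double-positive macrophages by 0.53 ± 0.08 (edgeR, adjusted p = 0.000201), and the interval of the difference between the CD4+ subsets ran from -0.17 to 0.18.

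Ptgs2 (ENSMUSG00000032487.8, chr1:150100031-150108227, plus strand) was lowest in double-positive macrophages among the subsets. Its monocyte libraries held 0.638, 0.399, and 0.297 CPM. The macrophage libraries held 1321, 1397, 1041, and 1232 CPM in double-negative, 1052, 1108, 1082, and 1225 CPM in single-positive, and 534, 953, 950, and 862 CPM in double-positive macrophages. Every double-positive library lay below every library of the other 2 subsets, and double-positive replicate 1 was the lowest. Over monocytes the fitted rise was 2630-fold in double-negative, 2354-fold in single-positive, and 1739-fold in double-positive macrophages (edgeR, adjusted p = 1.3e-14, 1.1e-14, and 1.4e-14). From double-negative to double-positive macrophages Ptgs2 fell by 0.60 ± 0.17 on the log2 scale (edgeR, adjusted p = 0.0176). Without double-negative replicate 2 the fall was 0.53 with adjusted p = 0.0516, and without double-positive replicate 1 the log2 fold change was -0.43 with adjusted p = 0.0247. The differences of single-positive macrophages from double-negative macrophages (log2 fold change -0.16, edgeR, adjusted p = 0.651) and of double-positive from single-positive macrophages (-0.44, adjusted p = 0.227) did not pass the threshold.

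Ptgs2 is itself an immediate early gene. A list of 16 genes known to respond to cell isolation rose with it from blood to gut. The list holds immediate early genes and the heat shock genes Hspa1a and Hspa1b. The summed level of the list was 1857 to 2025 CPM in monocytes and 34336 to 49438 CPM in the macrophage libraries, and 16 of 16 genes rose in each macrophage subset over monocytes, where 37.3% to 39.5% of all genes were called higher. Fos ran from 169 to 244 CPM in monocytes and from 5921 to 7771 CPM in macrophages. Fewer of them changed between subsets. None was called between the CD4+ subsets, where 3.41% of all genes were called. From double-negative to single-positive macrophages 3 of the 16 fell (Egr2, Ier2, and Nr4a1), with 5.53% of all genes called lower. From double-negative to double-positive macrophages 6 of the 16 fell (Egr1, Egr2, Atf3, Ier2, Nr4a1, and Btg2) and none rose, with 11.9% of all genes called lower. Egr1, a zinc finger transcription factor induced by many stimuli, fell by 0.65 on the log2 scale (edgeR, adjusted p = 0.00207), whereas the Fos difference was -0.09 (adjusted p = 0.657). The part of these genes' induction in the Ptgs2 values was not tested.

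Per kilobase of exon, Ptgs2 exceeded Ptgs1 in double-negative macrophages and lay below it in the CD4+ subsets. The length merged all annotated exons of a gene, so ratios between genes depend on that choice. In single-positive macrophages the mean CPM of Ptgs2 (1117) was above that of Ptgs1 (1075). The ratio of the level of Ptgs2 to that of Ptgs1 per kilobase was 1.41 ± 0.12 (SD, n = 4) in double-negative, 0.881 ± 0.030 in single-positive, and 0.652 ± 0.18 in double-positive macrophages. The ranges were 1.30 to 1.52, 0.838 to 0.908, and 0.409 to 0.812, so the 3 subsets did not overlap. In monocytes the ratio was 0.042 ± 0.014 (SD, n = 3).

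The genes whose log2 CPM was most like that of each cyclooxygenase were taken over the 12 macrophage libraries among 11789 genes, as a description, since all genes share the libraries. For Ptgs1 they were Tlr12, a Toll-like receptor (Pearson r = 0.99), the tetraspanin Cd9 (0.98), and the fatty acid desaturase Fads1 (0.98). For Ptgs2 they were the chloride channel protein Clic4 (0.98), the centrosomal protein gene Cep120 (0.97), and the engulfment gene Elmo1 (0.97). Tlr12 had a mean of 374, 595, and 621 CPM in the 3 subsets in the order above, and Clic4 had 327, 316, and 264 CPM. Among the subsets, the SD of Clic4 (36.6 CPM), Cep120 (8.12 CPM), and Elmo1 (17.6 CPM) was largest in double-positive macrophages. There Ptgs2 was lowest in replicate 1, and the weight of that library in these correlations was not tested.

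Of the terminal synthases among the members, Hpgds, the hematopoietic PGD2 synthase, rose from near 0. Ptges, the inducible PGE2 synthase, stayed at or below a few CPM in every library. Hpgds (ENSMUSG00000029919.5, chr6:65117293-65144908, minus strand) had 0.227, 0.126, and 0.111 CPM in monocytes, from 32, 13, and 6 counts. It had 179, 141, 157, and 167 CPM in double-negative, 315, 287, 215, and 309 CPM in single-positive, and 279, 306, 288, and 309 CPM in double-positive macrophages. Both CD4+ subsets lay wholly above double-negative macrophages and overlapped one another. The log2 fold change over monocytes was 9.89 ± 0.23 in double-negative, 10.70 ± 0.24 in single-positive, and 10.77 ± 0.24 in double-positive macrophages (edgeR, adjusted p = 2.5e-15, 1.1e-15, and 8.9e-16). Over double-negative macrophages, Hpgds rose by 0.81 ± 0.13 in single-positive (edgeR, adjusted p = 0.00055) and by 0.88 ± 0.13 in double-positive macrophages (adjusted p = 8.7e-05). The interval between the CD4+ subsets was -0.20 to 0.34.

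Ptges (ENSMUSG00000050737.13, chr2:30889471-30929863, minus strand) had 2.66, 2.18, and 2.42 CPM in monocytes. It had 0.803, 0.419, 0.259, and 0.647 CPM in double-negative, 0.971, 0.910, 0.742, and 0.749 CPM in single-positive, and 2.49, 1.27, 0.643, and 2.04 CPM in double-positive macrophages. Double-positive macrophages were the most scattered and overlapped every other population. Ptges fell from monocytes to double-negative macrophages by 2.18 ± 0.41 on the log2 scale (edgeR, adjusted p = 0.000192) and to single-positive macrophages by 1.53 ± 0.40 (adjusted p = 0.00272), but the difference for double-positive macrophages was -0.59 ± 0.39 (adjusted p = 0.19). Double-positive exceeded double-negative macrophages by 1.60 ± 0.39 (edgeR, adjusted p = 0.00646), although the libraries overlapped. With double-positive replicate 1 and double-negative replicate 3 both left out, this difference was 1.08 with adjusted p = 0.0577, and the fall from monocytes to double-positive macrophages was 0.86 with adjusted p = 0.0443. Mesenchymal genes moved with Ptges between double-negative and double-positive macrophages. The summed level of 10 of them was 78.9 to 115 CPM in double-negative and 123 to 179 CPM in double-positive macrophages, 4 of the 10 (Col1a1, Col1a2, Col3a1, and Dcn) rose, with 11.3% of all genes called higher, and none of the 10 was at 0 throughout either subset. In the same comparison 4 of 10 epithelial genes (Vil1, Krt20, Fabp1, and Fabp2) rose and Cdh1 fell. The part of either list in the Ptges values was not tested.

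The 3 PGE2 receptors differed in kind. Ptger2 and Ptger4 signal through Gs and raise cAMP, whereas Ptger3 signals mainly through Gi. Ptger4 (ENSMUSG00000039942.15, chr15:5206661-5244187, minus strand) was the most abundant of them per length in every population. Its CPM was 52.3, 81.3, and 63.0 in monocytes, 205, 190, 184, and 179 in double-negative, 101, 96.9, 114, and 103 in single-positive, and 54.1, 80.9, 80.3, and 72.9 in double-positive macrophages. The 3 macrophage subsets did not overlap, and all 4 double-positive libraries lay within the range of monocytes. Ptger4 rose over monocytes by 1.53 ± 0.15 in double-negative macrophages (edgeR, adjusted p = 1.5e-07) and by 0.66 ± 0.15 in single-positive macrophages (adjusted p = 0.000771). In double-positive macrophages the difference was 0.14 with an interval of -0.17 to 0.44 (adjusted p = 0.413), and without monocyte replicate 2 it was 0.35 with adjusted p = 0.0396. From double-negative macrophages it fell by 0.87 ± 0.13 in single-positive (edgeR, adjusted p = 0.000473) and by 1.39 ± 0.14 in double-positive macrophages (adjusted p = 1.3e-06). The fall of 0.53 ± 0.13 between the CD4+ subsets (edgeR, adjusted p = 0.0397) held under 13 of 25 alternative settings and was 0.41 with adjusted p = 0.0851 without double-positive replicate 1.

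Ptger3 (ENSMUSG00000040016.16, chr3:157566892-157645888, plus strand) was a low gene that was highest in double-negative macrophages. The monocyte libraries had 6, 1, and 0 counts, and the library at 0 allowed up to 0.0557 CPM. Double-negative macrophages had 3.94, 3.92, 4.94, and 3.73 CPM, single-positive macrophages 3.08, 0.556, 1.02, and 1.59 CPM, and double-positive macrophages 0.0681, 0.344, 0.257, and 0.581 CPM. Double-negative macrophages lay above all other libraries, and the CD4+ subsets overlapped in 1 value each. Against the 7 counts of all monocytes, the ratio of pooled CPM was 175 in double-negative (exact 95% interval 84.8 to 438), 67.2 in single-positive (32.4 to 168), and 12.2 in double-positive macrophages (5.71 to 31.2), where intervals cover counting error only. The log2 fold change from double-negative to double-positive macrophages was -3.75 ± 0.58 (edgeR, adjusted p = 0.000161). From single-positive to double-positive macrophages it was -2.35 ± 0.56 (adjusted p = 0.025), with adjusted p = 0.0996 and a change of -1.81 without single-positive replicate 1. From double-negative to single-positive macrophages it was -1.40 ± 0.52 and missed the threshold (adjusted p = 0.107), and without that library it was -1.94 with adjusted p = 0.034.

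Ptger2 (ENSMUSG00000037759.5, chr14:44988195-45003820, plus strand) was lower in macrophages and was not called between the subsets. Monocytes had 13.2, 13.5, and 14.0 CPM. The macrophage libraries ran from 4.61 to 5.97 CPM in double-negative, from 4.68 to 6.19 CPM in single-positive, and from 3.40 to 5.58 CPM in double-positive macrophages, all below the monocytes. The falls on the log2 scale were 1.34 ± 0.17, 1.37 ± 0.17, and 1.64 ± 0.17 (edgeR, adjusted p = 3.2e-06, 2.2e-06, and 2.3e-07). The intervals between subsets were -0.37 to 0.32, -0.64 to 0.04, and -0.62 to 0.06, and changes of a size inside these bounds remain possible.

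**Figure D2:**
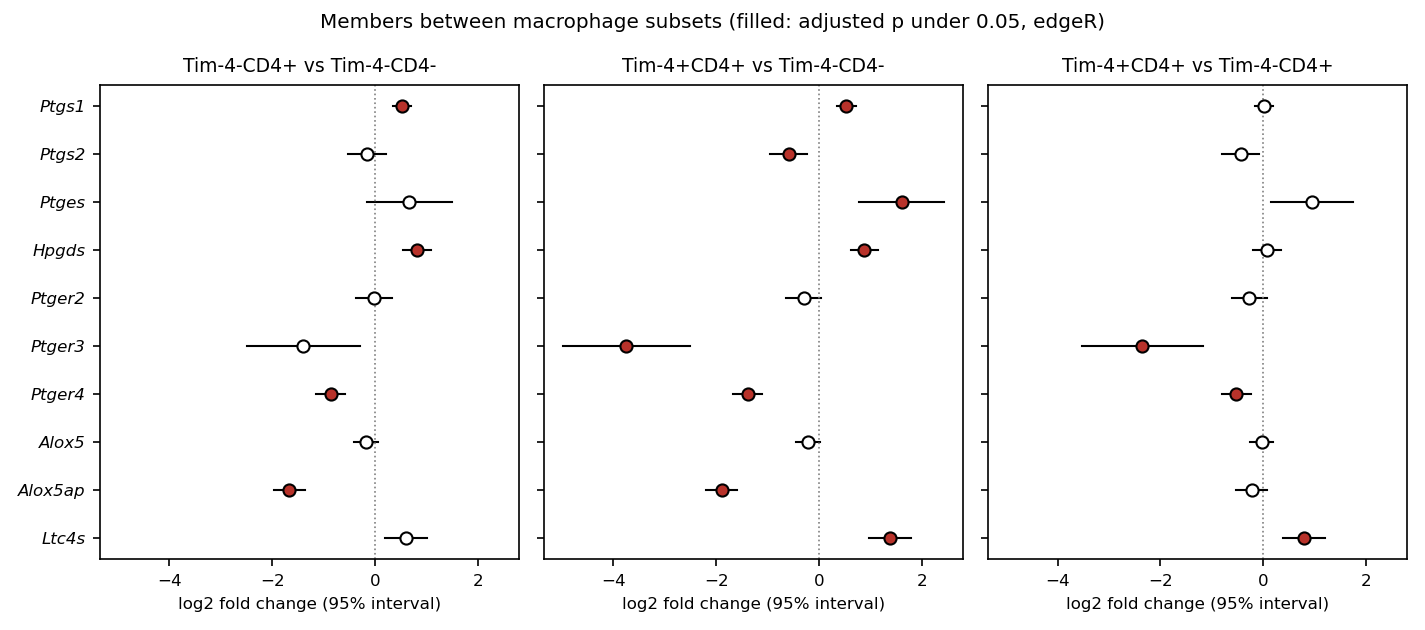
Log2 fold change of each member in the 3 comparisons of macrophage subsets, with points for the edgeR estimate, lines for its 95% interval, and filled points for adjusted p under 0.05. The filled points number 4, 8, and 3 from left to right, and Ptger3, Ptger4, and Alox5ap lie to the left of 0 and Hpgds and Ptgs1 to the right against double-negative macrophages.

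On the leukotriene side, Alox5 and its partner Alox5ap, also called FLAP, moved in opposite directions from blood to gut. Alox5 (ENSMUSG00000025701.12, chr6:116410077-116461178, minus strand) had 18.1, 17.3, and 18.7 CPM in monocytes. Its CPM was 73.0, 85.3, 87.4, and 76.1 in double-negative, 78.0, 64.7, 79.8, and 61.3 in single-positive, and 58.4, 77.2, 76.3, and 65.2 in double-positive macrophages. All macrophage libraries lay above the monocytes, and the subsets overlapped. The rise was 4.46-fold in double-negative, 3.93-fold in single-positive, and 3.84-fold in double-positive macrophages (edgeR, adjusted p = 1.9e-10, 4.5e-10, and 5.0e-10). Between subsets the log2 fold changes were -0.18, -0.22, and -0.03, with adjusted p = 0.353, 0.171, and 0.915 (edgeR). Over the 12 macrophage libraries, the genes most like Alox5 were Hyou1 (Pearson r = 0.96) and Dnaja3 (0.94), both chaperone genes, and the interferon-inducible GTPase gene Irgm1 (0.93).

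Alox5ap (ENSMUSG00000060063.9, chr5:149264767-149288153, plus strand) had 976, 911, and 848 CPM in monocytes and was their highest member per length. Its CPM was 58.8, 48.8, 66.8, and 54.8 in double-negative, 22.8, 18, 17.7, and 13.8 in single-positive, and 14.1, 14.9, 18.7, and 13.7 in double-positive macrophages. Monocytes, double-negative macrophages, and the CD4+ subsets formed 3 levels with no overlap. It was 15.9-fold lower in double-negative, 50.6-fold lower in single-positive, and 59.3-fold lower in double-positive macrophages than in monocytes (edgeR, adjusted p = 1.4e-12, 3.6e-14, and 2.2e-14). From double-negative macrophages it fell on the log2 scale by 1.67 ± 0.14 in single-positive (edgeR, adjusted p = 1.6e-06) and by 1.90 ± 0.14 in double-positive macrophages (adjusted p = 8.3e-08). The difference between the CD4+ subsets was -0.23 with an interval of -0.53 to 0.07. Ccr2, the chemokine receptor of recently arrived monocytes, fell along the same order, with a mean of 2630 CPM in monocytes and 660, 84.1, and 8.39 CPM in the 3 subsets, and its part in the Alox5ap values was not tested. Some dendritic cell genes also fell between the subsets, 2 of 6 (Flt3 and Itgae) in single-positive and 3 of 6 (Flt3, Ccr7, and Itgae) in double-positive macrophages, where 5.53% and 11.9% of all genes were called lower. The 6 summed to 43.2 to 89.7, 30.8 to 39.1, and 29.5 to 45.8 CPM across the subsets, and their part in the falls of Alox5ap, Ptger3, and Ptger4 was not tested. Per kilobase, the ratio of the level of Alox5 to that of Alox5ap was 0.0069 ± 0.00066 in monocytes, 0.492 ± 0.078 in double-negative, 1.38 ± 0.20 in single-positive, and 1.57 ± 0.18 in double-positive macrophages (SD, n = 3, 4, 4, and 4).

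Ltc4s, which conjugates LTA4 with glutathione to give LTC4, rose from blood to gut and was highest in double-positive macrophages. Ltc4s (ENSMUSG00000020377.14, chr11:50236461-50238616, minus strand) had 0.191, 0.272, and 0.0557 CPM in monocytes, from 27, 28, and 3 counts. It had 37.5, 40.7, 34.6, and 31.2 CPM in double-negative, 43.8, 54.3, 62.5, and 57.2 CPM in single-positive, and 138, 73.6, 83.9, and 79.6 CPM in double-positive macrophages. The 3 subsets did not overlap, and the highest value was that of double-positive replicate 1. The log2 fold change over monocytes was 7.54 ± 0.33, 8.14 ± 0.33, and 8.92 ± 0.34 in the same order (edgeR, adjusted p = 3.9e-12, 1.4e-12, and 4.9e-13). Double-positive exceeded double-negative macrophages by 1.38 ± 0.19 (edgeR, adjusted p = 6.3e-05), and by 1.14 with adjusted p = 2.4e-05 without double-positive replicate 1. Over single-positive macrophages the rise was 0.78 ± 0.19 (edgeR, adjusted p = 0.0299), and without that library 0.54 with adjusted p = 0.0532. The difference of 0.60 ± 0.19 between single-positive and double-negative macrophages missed the threshold (edgeR, adjusted p = 0.0613) and had adjusted p = 0.0062 without that library.

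Other cells known to carry Hpgds, Ltc4s, Alox5, or Ptgs1 were looked for through their markers. In the macrophage libraries the mast cell protease gene Cpa3 did not exceed 0.172 CPM and was at 0 in double-negative and single-positive macrophages. The summed level of the 5 mast cell genes in the table ran from 1.53 to 15.3 CPM. Most of it was Kit, whose mean was 7.74, 2.93, and 1.45 CPM across the subsets. Over monocytes Kit rose and Hdc fell in each subset, and Mcpt1 rose in double-negative and double-positive macrophages. Kit was lower in both CD4+ subsets than in double-negative macrophages, as was Hdc in double-positive macrophages. The eosinophil granule gene Prg2 did not exceed 0.431 CPM, and the 5 tuft cell genes in the table summed to at most 1.86 CPM. The 4 eosinophil genes summed to 5.75 to 9.96, 9.30 to 11.2, and 12 to 17.9 CPM across the subsets, most of it Siglecf, which was higher in double-positive than in double-negative macrophages (mean 13.7 against 7.01 CPM, edgeR, adjusted p = 0.00472). The platelet gene Gp1ba was at 0 in all 12 macrophage libraries. The 9 platelet genes summed to 1.96 to 4.40 CPM there and to 2.19 to 4.51 CPM in monocytes. Ppbp rose over monocytes in each subset, from 0.350 to 1.02 CPM to means of 2.23, 2.58, and 2.00 CPM, and Itga2b fell. Of all genes, 37.3% to 39.5% were called higher in these comparisons. The part of Siglecf-bearing cells in the Hpgds and Ltc4s values was not tested. In monocytes, 5 of the 6 neutrophil genes in the table were under 1 CPM in every library, all but Mmp8. The 6 summed to 145 to 213 CPM there, most of it Mmp8, and to 0.358 to 2.68 CPM in macrophages. Retnlg rose over monocytes in each subset instead. Mmp8 also fell from double-negative macrophages to each CD4+ subset, where 5.53% and 11.9% of all genes were called lower. The part of neutrophil genes in the Alox5 and Alox5ap values was not tested. Over double-negative macrophages, 4 of 10 epithelial genes (Vil1, Krt20, Fabp1, and Fabp2) rose and Cdh1 fell in each CD4+ subset, where 4.52% and 11.3% of all genes were called higher. The 10 summed to 13.7 to 31.2, 19.7 to 26.8, and 21.5 to 32.5 CPM across the subsets, which overlapped, and their part in the rises of Hpgds and Ptgs1 was not tested.

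Most markers of other tissue cells were also higher in gut than in blood. In each macrophage subset over monocytes, 7 of 7 endothelial genes, 7 of 7 B and plasma cell genes, and 5 of 6 dendritic cell genes (all but Flt3, which fell) rose, as did 9, 8, and 8 of 10 epithelial genes and 8, 8, and 9 of 10 mesenchymal genes, beside 37.3%, 39.1%, and 39.5% of all genes. The endothelial genes summed to at most 1.82 CPM in monocytes and to 9.01 to 50.2 CPM in macrophage libraries. B and plasma cell genes summed to at most 10.6 CPM in monocytes and to 241 to 430 CPM in macrophage libraries, most of it Jchain. The epithelial sum was at most 2.79 CPM in monocytes and the mesenchymal sum at most 14.2 CPM. T cell genes rose as well, 5, 6, and 6 of 7 in the 3 subsets, whereas Cd2 fell in double-positive macrophages. They summed to at most 2.95 CPM in monocytes and to 6.67 to 16.8 CPM in macrophage libraries. All 3 eosinophil genes tested rose in each subset. The part of these cells in the differences between members in gut and blood was not tested.

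Counted over all comparisons, the members were called in nearly all contrasts with blood, where most genes were called too. Against monocytes, 10 of 10 members passed in double-negative macrophages (7 higher and 3 lower, 65.4% of all genes called, 37.3% higher and 28.1% lower). In single-positive macrophages 10 of 10 passed as well (7 and 3, beside 69.8%, 39.1%, and 30.7%), and in double-positive macrophages 8 of 10 (6 and 2, beside 70.9%, 39.5%, and 31.3%). The libraries did not overlap for 10, 10, and 8 members, and for 67.6%, 70.1%, and 68.7% of all genes. The median log2 fold change of the members was 4.28, 4.01, and 2.82, and that of all genes 0.08, 0.11, and 0.10. These 3 comparisons share the monocyte libraries.

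Between subsets the share of all genes called was far lower. Single-positive against double-negative macrophages gave 4 of 10 members (2 higher and 2 lower), with 10.1% of all genes called, 4.52% higher and 5.53% lower. Double-positive against double-negative macrophages gave 8 of 10 (4 and 4), with 23.1% called, 11.3% higher and 11.9% lower. Double-positive against single-positive macrophages gave 3 of 10 (1 and 2), with 3.41% called, 2.07% higher and 1.34% lower. The libraries did not overlap for 6, 7, and 3 members, and for 19.1%, 26.4%, and 9.63% of all genes. The median log2 fold change of the members was -0.09, -0.26, and -0.13, beside -0.003, -0.005, and -0.002 for all genes. The 3 calls of the last comparison became 1 with double-positive replicate 1 left out and 0 with double-negative replicate 3 removed too, and they were 0 without single-positive replicate 1, 1 without replicate 2, and 0 without replicate 4. For the other 2 subset comparisons the counts were 6 and 8 without double-positive replicate 1 and 5 and 7 without both libraries.

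**Figure D3:**
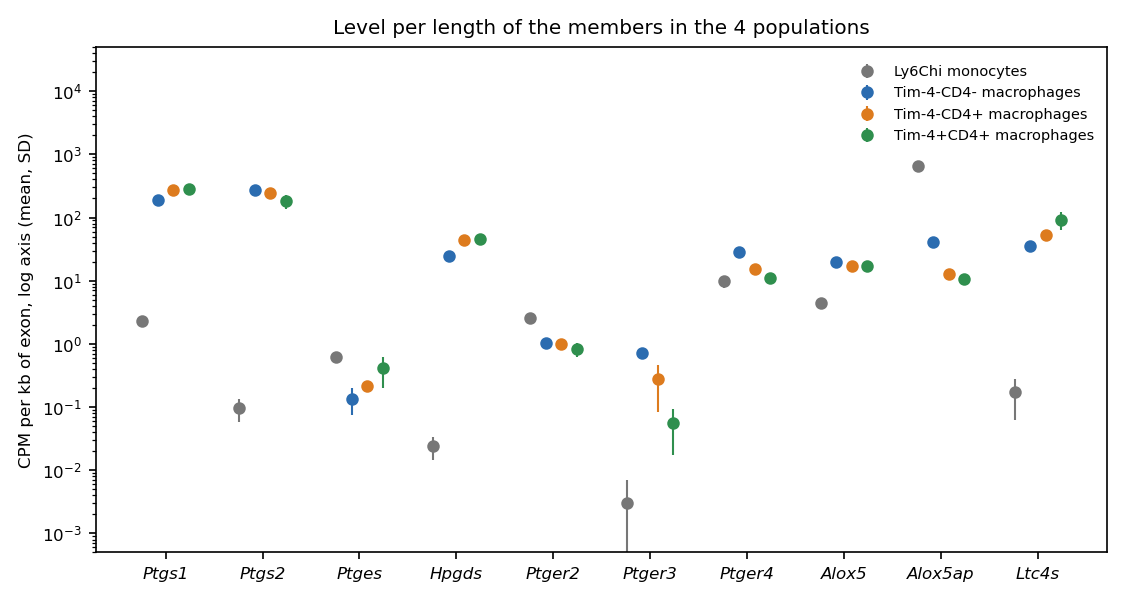
Mean CPM per kilobase of exon of each member in the 4 populations, on a log axis, with bars for the SD over libraries. The lower bar of Ptger3 in monocytes is shortened because it would pass below 0. Alox5ap stands highest in monocytes at 642, and Ptgs1 and Ptgs2 stand highest in all 3 macrophage subsets, from 180 to 278.

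Levels per kilobase of exon allowed the genes to be ordered within a population, and the order depends on the merged exon length used. In monocytes Alox5ap led at 642 ± 45.0 (SD, n = 3), followed by Ptger4 at 9.86 ± 2.21, Alox5 at 4.40 ± 0.17, Ptger2 at 2.6 ± 0.08, and Ptgs1 at 2.29 ± 0.20. In double-negative macrophages Ptgs2 at 272 ± 33.4 (SD, n = 4) and Ptgs1 at 193 ± 14.3 led, and Alox5ap at 40.3 ± 5.32 and Ltc4s at 35.5 ± 4.02 were neighbours whose SD bars overlapped. In single-positive macrophages Ptgs1 at 277 ± 17.5 and Ptgs2 at 244 ± 16.6 were followed by Ltc4s at 53.7 ± 7.79 and Hpgds at 43.8 ± 7.17, and the SD bars of the latter pair overlapped. In double-positive macrophages Ptgs1 at 278 ± 15.2 and Ptgs2 at 180 ± 43.3 led, then Ltc4s at 92.4 ± 29.2 and Hpgds at 46.0 ± 2.22. Ptges stayed at 0.410 or below on this scale in all 3 macrophage subsets.

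Around the members, 42 of 47 further genes of the pathway were in the table, and 39 were tested. Against monocytes, 27 of the 39 passed in double-negative macrophages (19 higher and 8 lower), 31 in single-positive macrophages (20 and 11), and 31 in double-positive macrophages (21 and 10), beside 65.4%, 69.8%, and 70.9% of all genes. Between subsets 6, 15, and 3 of the 39 passed, which is 3 higher and 3 lower, 9 and 6, and 2 and 1, beside 10.1%, 23.1%, and 3.41% of all genes. Their median log2 fold change was 0.58, 0.56, and 1.23 against monocytes and -0.04, 0.04, and 0.03 between subsets.

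Most genes of a list for arachidonic acid release rose from blood to gut. Which fatty acids their enzymes release was not measured. Of the 8 tested, 7, 7, and 8 rose in the 3 subsets and none fell, where 37.3%, 39.1%, and 39.5% of all genes were called higher. The cytosolic phospholipase gene Pla2g4a, named after its values were seen, had means of 37.1 CPM in monocytes and 97.4, 113, and 111 CPM in the subsets. It was not called between the subsets. Pla2g2d, a secreted phospholipase, had 0.213 to 0.302 CPM in monocytes, 50.9 to 74.1 CPM in double-negative, 169 to 225 CPM in single-positive, and 905 to 997 CPM in double-positive macrophages, with no overlap at any step. It rose by 1.68 ± 0.13 from double-negative to single-positive macrophages (edgeR, adjusted p = 6.5e-07) and by a further 2.29 ± 0.13 to double-positive macrophages (adjusted p = 6.4e-08). Mgll, the monoacylglycerol lipase, had 2 counts in all monocytes and means of 2.17, 1.48, and 2.23 CPM in the subsets, a ratio of pooled CPM of 324 in double-negative macrophages (exact 95% interval 89.1 to 2683). Pla2g6 rose from double-negative to double-positive macrophages by 0.67 ± 0.16 (edgeR, adjusted p = 0.00659), and Pla2g4b by 1.73 ± 0.53 at a mean below 1 CPM in every population (adjusted p = 0.0259). The Pla2g4b call held under 19 of the 24 alternative settings that tested it and was lost without double-negative replicate 3 and without double-positive replicate 2 or 3.

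Of the other prostanoid synthases, 4 of 7 tested rose and 1 fell in each subset over monocytes, beside 37.3% to 39.5% of all genes called higher and 28.1% to 31.3% lower. The fall was that of Ptges2, from a mean of 11.3 CPM in monocytes to 7.88, 7.65, and 7.29 CPM in the subsets. Ptges3 had means of 57.1 CPM in monocytes and 76.5, 67.6, and 62.0 CPM in the subsets, and was not called. Both carry the PGE synthase name, like Ptges, and were named here after their values were seen. Tbxas1, the thromboxane synthase, named here after its values were seen, had 49.5 to 60.8 CPM in monocytes and 303 to 371 CPM over all macrophage libraries. Per kilobase, the ratio of the level of Hpgds to that of Tbxas1 was 0.667 ± 0.073, 1.2 ± 0.22, and 1.32 ± 0.080 (SD, n = 4) across the subsets. This ratio depends on the length used. Mean CPM was higher for Tbxas1 than for Hpgds in single-positive (334 against 281) and double-positive macrophages (316 against 296). Between subsets 1 of the 7 was called, Cbr1, a carbonyl reductase, which was higher in double-positive than in double-negative macrophages by 0.39 ± 0.11 (edgeR, adjusted p = 0.0139). This call held under 23 of 25 alternative settings and was lost with double-positive replicate 1 and double-negative replicate 3 both left out. Of the 3 other prostanoid receptors tested, Ptgir, the prostacyclin receptor, fell in all subsets, from 99.6 to 103 CPM in monocytes to at most 0.958 CPM in macrophages, and the remaining pair was not called.

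Breakdown and transport genes moved both ways. Hpgd, the enzyme that inactivates PGE2, had 97.5 to 118 CPM in double-negative, 109 to 139 CPM in single-positive, and 149 to 184 CPM in double-positive macrophages, and the rise from the first to the last was 0.65 ± 0.12 (edgeR, adjusted p = 0.000598). Its rise of 0.47 ± 0.12 between the CD4+ subsets (edgeR, adjusted p = 0.0319) held under 17 of 25 alternative settings. Abcc4, an exporter of prostaglandins, fell from 95.3 to 115 CPM in monocytes to between 10.6 and 22 CPM in macrophages, and by 0.50 ± 0.15 from double-negative to single-positive macrophages (edgeR, adjusted p = 0.0412, called under 16 of 25). The prostaglandin importer Slco2a1 had 7 counts in all monocytes, all of them in replicate 1. Its mean was 2.15, 1.64, and 3.84 CPM in the subsets, with 4.56 CPM in double-negative replicate 1. The 7 endothelial genes summed to 15.3 to 50.2, 9.01 to 24.5, and 21.8 to 43.5 CPM across the subsets, and the part of endothelial cells in the Slco2a1 values was not tested. Ptgr1, a prostaglandin reductase that also inactivates LTB4, fell from double-negative macrophages by 0.79 ± 0.17 in single-positive (edgeR, adjusted p = 0.00488) and by 0.93 ± 0.17 in double-positive macrophages (adjusted p = 0.000592).

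Of 4 leukotriene receptors tested, 2 rose and 1 fell in each subset over monocytes, beside the same shares of all genes. Ltb4r1, the high-affinity LTB4 receptor, had 58.2 to 73.4 CPM in monocytes, 6.32 to 8.43 CPM in double-negative, 2.00 to 3.50 CPM in single-positive, and 0.675 to 1.17 CPM in double-positive macrophages, with no overlap at any step. It fell by 1.53 ± 0.18 and then by 1.63 ± 0.20 on the log2 scale along the subsets (edgeR, adjusted p = 3.4e-05 and 6.2e-05). The receptors for cysteinyl leukotrienes rose over monocytes instead. Cysltr2 had 0.204 to 0.302 CPM in monocytes and means of 3.50, 7.16, and 6.41 CPM in the subsets, and its rises over double-negative macrophages were 1.03 ± 0.16 in single-positive and 0.87 ± 0.16 in double-positive macrophages (edgeR, adjusted p = 0.000503 and 0.000753). Cysltr1 had means of 42.3 CPM in monocytes and 112, 110, and 82.2 CPM in the subsets, and its fall of 0.45 ± 0.16 from double-negative to double-positive macrophages (edgeR, adjusted p = 0.0494) was called under 7 of 25 alternative settings.

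Of the remaining leukotriene genes, 4, 7, and 7 of 8 tested passed against monocytes, where 65.4%, 69.8%, and 70.9% of all genes were called. Between subsets 1, 5, and 0 of the 8 passed, where 10.1%, 23.1%, and 3.41% of all genes were called. Ggt5, which converts LTC4 to LTD4, had 3.63 to 4.66 CPM in monocytes and means of 69.2, 87.6, and 89.7 CPM in the subsets. It was higher than in double-negative macrophages by 0.34 ± 0.09 in single-positive (edgeR, adjusted p = 0.026, called under 19 of 25 alternative settings) and by 0.37 ± 0.09 in double-positive macrophages (adjusted p = 0.00706). In double-positive against double-negative macrophages, Lta4h, which makes LTB4, fell by 0.27 ± 0.08 (edgeR, adjusted p = 0.0203, called under 17 of 25). The LTC4 exporter gene Abcc1 fell by 0.57 ± 0.13 (adjusted p = 0.0036), and Dpep2, which cleaves LTD4, by 0.58 ± 0.20 (adjusted p = 0.046, called under 8 of 25). Its relative Dpep1 had no counts in monocytes and rose between these subsets by 2.13 ± 0.56 at a mean below 1 CPM (edgeR, adjusted p = 0.012), called under 22 of the 23 settings that tested it and lost with double-positive replicate 1 and double-negative replicate 3 both left out. Among 4 other lipoxygenases tested, Aloxe3, the epidermis-type lipoxygenase, rose by 1.54 ± 0.25 in the same comparison, from 0.884 to 1.13 CPM to between 2.36 and 4.23 CPM (edgeR, adjusted p = 0.000307).

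**Figure D4:**
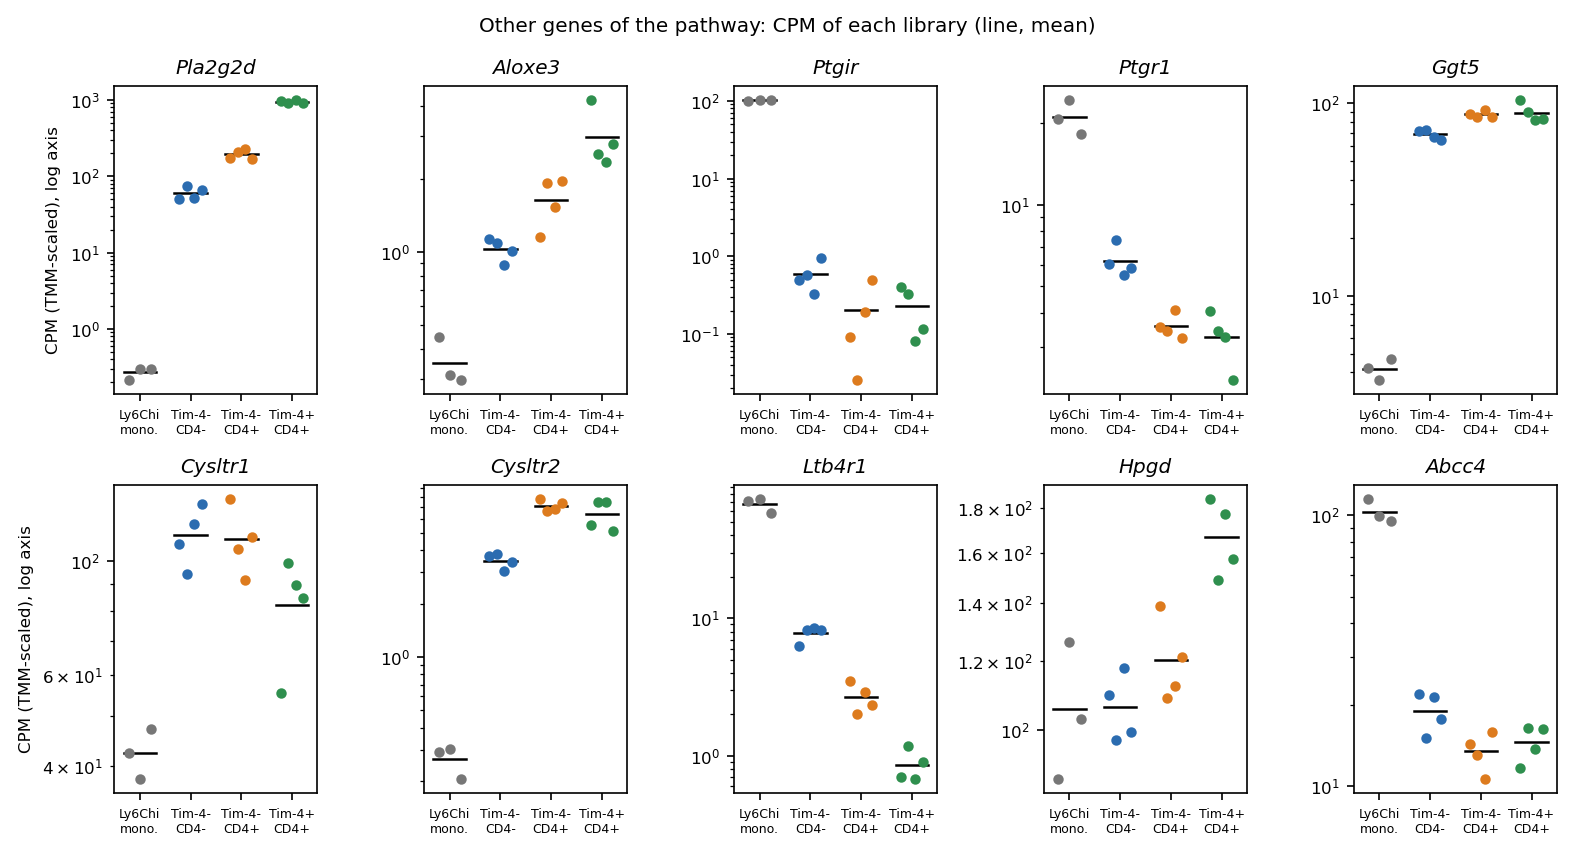
CPM of 10 further pathway genes in every library, on log axes, with 1 point per library and the mean as a line. Pla2g2d climbs from 0.213 to 0.302 CPM in monocytes to 905 to 997 CPM in double-positive macrophages, and Ltb4r1 falls at each step to 0.675 to 1.17 CPM.

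Over the whole span from start to end, introns included, some members overlap other annotated genes. The part of these overlaps that lies in exons was not measured. Ptger4 overlaps the protein-coding gene Ttc33 on the opposite strand over 11676 bases, and Ptgs1, Ptger2, Alox5ap, Hpgds, and Ltc4s overlap noncoding genes or pseudogenes on the opposite strand, whereas Ptges holds a pseudogene on its own strand. The libraries were strand-specific, but whether counting used the strand is not given in the sources used here, so reads from the overlaps cannot be told apart.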

How the data were processed

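RNA was sequenced in 15 libraries of sorted cells with a stranded TruSeq mRNA kit. Per the labels and the study's methods, the authors used Trimmomatic 0.36 for trimming, STAR for alignment to the GRCm38.p4 genome, and HTSeq 0.6.1p1 with the GENCODE vM11 annotation for counting. The counts they deposited cover reads with a unique position and are not normalized. The deposited normalized signal was the counts divided by 1 size factor per library and was used only for a check of that ratio. Library totals had a median of 63249039 counts. Identifiers were matched to GENCODE M21 without their version, which gave 19421 of 19456 genes.

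The tests ran in edgeR 4.0.16 under R 4.3.3, with DESeq2 1.42.0 and limma 3.58.1 beside it. Figures were drawn with matplotlib 3.10.9 in Python 3.11.15. Genes were filtered with filterByExpr by population, which kept 15802, libraries were scaled with TMM, and 1 quasi-likelihood fit without a replicate block gave 6 comparisons, each adjusted by the Benjamini-Hochberg method with a threshold of 0.05. Log2 CPM used a prior count of 2. Exon length was that of all annotated exons of a gene in GENCODE M21, merged. A library at 0 was taken to allow up to 3 counts. No libraries agreed within sampling noise. P-values measure the spread between pooled libraries, which the fit treats as independent. Any sharing of mice between subsets was not modelled in it. The procedure was also run on simulated counts in which only double-positive macrophages held changed genes, and no result here rests on that run.

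The members, gene lists, and tests were chosen with earlier results of these data known. All members were described in every comparison. Of other pathway genes, those past the threshold between subsets were named, and against monocytes the 3 with the largest change in each direction, if their libraries did not overlap and averaged 1 CPM or more. Likeness was Pearson's r over macrophage libraries. The alternatives were DESeq2, RLE and upper-quartile scaling, filters of at least 1 count or of a mean of 1 CPM, fits of only 2 populations, replicate blocks, thinned counts, and leaving out libraries. Leaving out double-positive replicate 1 and double-negative replicate 3 together was added after the data were seen, as were the motifs, the ratios between genes, and the ratios of pooled counts. Genes of the lists that were absent from the table were not analysed here.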

Additional observations from a re-analysis of the deposited data

Results flagged for a closer look

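In double-positive macrophages, the Ltc4s level of replicate 1, 138 CPM, lay far from the other 3 libraries at 73.6 to 83.9 CPM, with a gap of 0.839 of the whole range (0.79 on the log2 scale, where it would not have been marked). The Mgll level of single-positive replicate 1, 0.769 CPM, lay below the others at 1.67 to 1.78 CPM, with a gap of 0.892 of the range. The Ltb4r1 level of double-negative replicate 1, 6.32 CPM, lay below the others at 8.24 to 8.43 CPM, with a gap of 0.912 of the range. These were 3 of 87 groups of 4 libraries looked at, and chance alone gives about 5% of groups such a gap. The members were first looked at on the log2 scale, where none was marked, and then as CPM, the scale printed here, with the other named genes of the pathway added.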

How the results depend on the processing

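Each comparison was recomputed under 25 alternatives. The members called against monocytes stayed at 10 of 10 in double-negative and single-positive macrophages and ran from 8 to 9 in double-positive macrophages. They ran from 4 to 6 in single-positive and from 7 to 8 in double-positive against double-negative macrophages. Between the CD4+ subsets the 3 calls became 0 with only those populations fitted, and 0 to 3 with 1 library left out. They became 0 with double-positive replicate 1 and double-negative replicate 3 both left out. The cause was not tested, although these fits hold fewer libraries. Ltc4s in single-positive against double-negative macrophages was called under 7 of the 25, among them DESeq2 (adjusted p = 0.0149) and the fit of those populations (adjusted p = 0.0045).

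Same-numbered macrophage libraries deviated together little, with correlations from -0.12 to 0.13 by title numbers and from -0.09 to 0.16 by description numbers. By description numbers, 4 of 12 pairs were over 0.1 and 5 of 12 were most like their own number. A correlation of 0.24 was reached between libraries of different numbers. The numbers were therefore not taken as pairs, and whether subsets shared pools in some other order was not tested. With a replicate block by title numbers the calls between the CD4+ subsets were 1 of 10, and by description numbers 2 of 10, and the block moved the count of all genes called to 431 and 506 from 539.

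Reversed values were all of uncalled differences near 0. Without 1 library, the log2 fold change of Ptger2 in single-positive against double-negative macrophages ran from -0.112 to 0.035. Between the CD4+ subsets it ran from -0.015 to 0.056 for Ptgs1, from -0.094 to 0.041 for Alox5, and from -0.029 to 0.136 for Hpgds. With both libraries left out, Ptgs1 was at -0.004 and Alox5 at 0.04. With CPM from raw library totals, Ptger2 in monocytes moved from 13.5 to 14.5 CPM and Alox5 from 18.1 to 19.3 CPM, and the other 38 mean levels moved by less than their SD. All genes called moved from 1589 to 1033 in single-positive against double-negative macrophages without single-positive replicate 4, and from 539 to 917 between the CD4+ subsets with DESeq2. Depth limits Ptger3, Ptges, Pla2g4b, and Dpep1, which lay at or below a few CPM.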
